A study of Mus musculus with 16 samples.

Results

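Interleukins are the secreted messengers through which leukocytes and stromal cells signal to one another, and many of them act through receptor chains shared with other ligands. The members described here were the probe sets with a single gene symbol that starts with Il followed directly by a number, in the comparison of interscapular brown adipose tissue (BAT) with subcutaneous white adipose tissue (sWAT) of the mouse. This rule, which used no measured value, gave 73 genes with 115 probe sets, of 18194 genes and 34958 single-symbol probe sets on the array (45101 probe sets in all). They comprised 36 receptor chains, 32 ligands and 5 other genes, namely 3 antagonists or binding proteins (Il1rn, Il18bp and Il1f5), the enzyme Il4i1 and Il1bos, a transcript from the strand opposite Il1b. RNA of both tissues came from untreated LACA (Laboratory Animal Centre A-strain) mice on standard chow, labelled male and weighing 25 ± 3 g, and was amplified, labelled and measured on 16 Affymetrix mouse genome arrays, 8 of BAT and 8 of sWAT. Each tissue had 4 replicates with 2 arrays each, 1 labelled biological and 1 technical, which were averaged. No genotype differed between the groups, and both shared the strain, the labelled sex, the diet and the lack of treatment. The ages of the mice were not given in the sources used here.

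Most interleukin receptors work as pairs of chains, a private chain that binds the ligand and a shared chain that carries the signal. The common gamma chain serves IL-2, IL-4, IL-7, IL-9, IL-15 and IL-21, gp130 (Il6st) serves IL-6, IL-11 and IL-27, and both kinds of receptor signal through Janus kinases and STAT factors, whereas receptors of the IL-1 and IL-17 families signal through adaptors such as MyD88 and Act1. In adipose tissue interleukins are known from resident lymphocytes, macrophages and stromal cells, and IL-4, IL-6, IL-13 and IL-33 have been studied there for their part in thermogenesis and in type 2 immunity.

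The deposited values were on the log2 scale and centred probe set by probe set, so that 0 is the median over all 16 arrays, a level cannot be given, and genes cannot be ranked by abundance. Of the 16 arrays, 2 (the second of BAT replicate 1 and the first of sWAT replicate 3) had weak 5′ signal of Gapdh and Actb, at -3.56 and -4.79 against -1.23 to 0.46 elsewhere. The 2 arrays averaged for a replicate correlated at 0.51 in BAT replicate 1 and 0.34 in sWAT replicate 3, against 0.85 to 0.92 in the other replicates. Xist, which is transcribed in female cells, was at 5.74, 6.26 and 6.36 in BAT replicates 1 to 3 and at -0.26 in BAT replicate 4, against -0.27 to -0.11 in sWAT. The mean of 3 Y-linked genes was -2.33 to -1.98 in those 3 BAT replicates and 0.18 in BAT replicate 4, against 0.20 to 0.39 in sWAT, so 3 BAT replicates went against the label male and number 4 alone had the same sex-linked pattern in both tissues. As the values stand, BAT replicates 1 to 3 thus shared no animal with any sWAT replicate, and in those numbers tissue cannot be told apart from sex and animal, in every comparison that follows. All 8 brown adipocyte genes checked were higher in BAT, which fits the label of the tissue. So were all 10 genes of skeletal muscle, whose list mean was 2.26 to 4.15 in BAT and -2.15 to -1.63 in sWAT. Ucp1 and Cox7a1 of the first list and Acta1, Tnnc2, Tnnt3, Myh1 and Myh4 of the second are among the study's top BAT genes. The outcome of these lists was thus partly known beforehand. In whole tissue, fewer cells of a type and less RNA per cell cannot be told apart.

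Of the receptor chains, many more were lower in BAT than higher. A gene was called at an adjusted p under 0.05 (limma, Benjamini-Hochberg over all genes), which 17.5% of all genes reached lower in BAT and 21.0% higher in BAT. Of the 36 receptor chains 19 (52.8%) were lower, 2 (5.56%) higher and 15 not called, and of the 32 ligands 10 (31.2%) were lower, 1 (3.12%) higher and 21 not called. The median log2 difference, BAT minus sWAT, was -0.55 over the receptor chains and 0.05 over the ligands, beside 0.15 over all genes. A fold of at least 2 was reached by 10 receptor chains and 4 ligands, all of them lower in BAT, against 8.0% of all genes lower and 7.13% higher at that fold. In 28 members every BAT replicate lay below every sWAT replicate and in 16 every BAT replicate lay above, where the shares of all genes were 17.4% and 28.0%. The share of ligands that were lower thus stood nearer to that of all genes than the share of receptors did, and this gap was not tested. Without the 2 arrays of weak 5′ signal, 20 receptor chains were lower and 3 higher, and 11 ligands were lower and 6 higher. The paired test named in the methods, which does not share the spread over genes, called 10 receptor chains lower and 1 higher, and 6 ligands lower. In limma without the replicate number as a block, 19 receptor chains were lower and 4 higher, and 11 ligands were lower and 6 higher. The shares of all genes called in these other settings are not given, so their counts cannot be set against the 17.5% and 21.0% above.

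**Figure D1:**
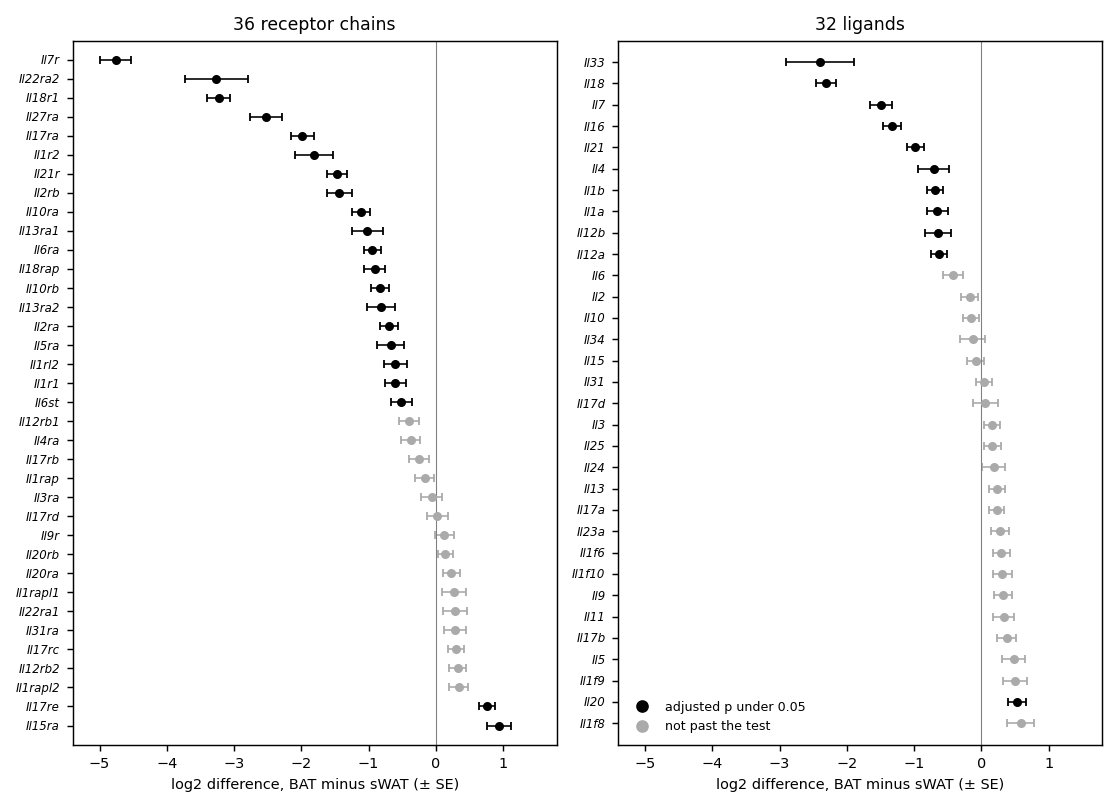
Log2 difference, BAT minus sWAT, of every receptor chain (left, n = 36) and every ligand (right, n = 32), with bars for the standard error from 4 replicates per tissue. Black points had an adjusted p under 0.05 and grey points did not; the receptor chains reach -4.76 (Il7r) on the left and 0.94 (Il15ra) on the right, and the ligands reach -2.40 (Il33) on the left.

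The receptors of the common gamma chain family held the largest difference of all members, with 4 of 7 lower, 1 higher and 2 not called (median -0.69). The gene of the common gamma chain itself, Il2rg, was not among the members. Il7r, the private chain of the IL-7 receptor and a marker of naive T cells and innate lymphoid cells, was at -2.66, -2.41, -1.90 and -2.01 in BAT replicates 1 to 4 and at 2.92, 2.17, 2.13 and 2.85 in sWAT. The tissues did not overlap, and the lowest sWAT value lay 4.03 log2 units above the highest BAT value. The difference was -4.76 ± 0.24 (SE, n = 4 per tissue), or 27.1-fold lower in BAT, with an adjusted p of 4.4e-05. Its 2 probe sets gave -4.93 and -4.59. The 185 bases before the annotated Il7r gene (RefSeq, GRCm38.p6, chr15:9529942-9530126, minus strand) are shown because it led the members, with a TTCNNNGAA match from base -77 to -69 in capitals, positions being counted back from the first base of the gene.
Il7r promoter: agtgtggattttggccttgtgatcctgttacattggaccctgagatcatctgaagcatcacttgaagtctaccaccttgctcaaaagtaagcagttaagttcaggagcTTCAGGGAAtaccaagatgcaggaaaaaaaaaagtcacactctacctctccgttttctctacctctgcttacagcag
Il2rb, the chain shared by the receptors of IL-2 and IL-15, was at -0.50, -0.79, -0.36 and -0.17 in BAT and 1.55, 0.53, 0.55 and 1.28 in sWAT, a difference of -1.43 ± 0.19 (2.7-fold lower, adjusted p = 0.00129). Its sWAT replicates fell into a higher and a lower pair, all above BAT. Il21r, through which IL-21 acts on B and T cells, had -0.46, -0.63, -0.50 and -0.51 in BAT and 1.06, 0.72, 0.63 and 1.34 in sWAT (-1.46 ± 0.15, adjusted p = 4.3e-04). The BAT values of Il21r lay within 0.18 of each other. Il4ra, the chain shared by IL-4 and IL-13, was at -0.01, -0.36, -0.24 and 0.06 in BAT and 0.16, 0.31, -0.18 and 0.64 in sWAT, where the tissues overlapped and the difference of -0.37 ± 0.15 did not pass the test (adjusted p = 0.0830). Without the arrays of weak 5′ signal it was -0.52 and passed (adjusted p = 0.00632). The 3 probe sets of Il4ra gave -1.23, -0.42 and 0.53, and only the first was called when tested alone. Il9r was not called (0.13 ± 0.14).

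Il2ra and Il15ra, neighbours on chromosome 2 with no other protein-coding gene between them, went in opposite directions. Il15ra, which holds IL-15 and presents it to lymphocytes, was at 0.39, 0.62, 0.97 and 0.26 in BAT and -0.20, -0.29, -0.59 and -0.42 in sWAT, with every BAT value above 0 and every sWAT value below it. The difference was 0.94 ± 0.18 (1.91-fold higher in BAT, adjusted p = 0.00664), a call not made by the paired test (adjusted p = 0.0798). The 2 probe sets of Il15ra gave 1.04 and 0.83, and only the first was called when tested alone. Il2ra, the CD25 chain of activated and regulatory T cells, was at -0.26, -0.43, -0.32 and -0.32 in BAT and 0.35, 0.15, 0.70 and 0.24 in sWAT, with no overlap. Its log2 difference was -0.69 ± 0.13 (lower in BAT, adjusted p = 0.00597). The 2 probe sets of Il2ra gave -1.07 and -0.31, and again only the first was called when tested alone. Il2ra, like the comparison of these neighbours, was chosen after the values had been seen. The sequences before both annotated genes (RefSeq, GRCm38.p6, plus strand, 250 bases at chr2:11642542-11642791 for Il2ra and 129 bases at chr2:11705043-11705171 for Il15ra) are shown to set the pair side by side, with the complement of GGAAGT in capitals from base -35 to -30 of Il2ra and no match to the 4 motifs searched in the bases shown of Il15ra.
Il2ra promoter: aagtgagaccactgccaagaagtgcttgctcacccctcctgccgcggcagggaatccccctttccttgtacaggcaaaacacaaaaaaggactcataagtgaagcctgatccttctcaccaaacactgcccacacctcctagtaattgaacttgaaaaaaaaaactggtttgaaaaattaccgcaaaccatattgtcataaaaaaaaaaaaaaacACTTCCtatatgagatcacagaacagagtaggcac
Il15ra promoter: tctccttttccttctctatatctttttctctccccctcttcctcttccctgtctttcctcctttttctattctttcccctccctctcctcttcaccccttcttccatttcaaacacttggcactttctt

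The IL-1 receptor family had 5 of 8 chains lower in BAT (median -0.60), and these 5 lie in 1 cluster on chromosome 1 that holds 6 protein-coding genes (the sixth is not analysed here), in the order Il1r2, Il1r1, Il1rl2, Il18r1 and Il18rap. Il18r1, the chain that binds IL-18, was at -1.68, -1.97, -2.19 and -1.90 in BAT and 1.85, 0.89, 1.42 and 1.01 in sWAT. The highest BAT value lay 2.57 below the lowest sWAT value, and the difference was -3.23 ± 0.17 (9.37-fold lower, adjusted p = 4.9e-05). Il18rap, the signalling partner of Il18r1, had -0.54, -0.46, -0.69 and -0.06 in BAT and 0.86, 0.22, 0.19 and 0.62 in sWAT (-0.91 ± 0.16, adjusted p = 0.00408). BAT replicate 4 was the highest of BAT but stayed below sWAT, and the paired test did not call the gene (adjusted p = 0.0575). The window before the start of Il18rap (RefSeq, GRCm38.p6, chr1:40515112-40515361, plus strand) is given for the cluster, with GGAAGT in capitals from base -77 to -72.
Il18rap promoter: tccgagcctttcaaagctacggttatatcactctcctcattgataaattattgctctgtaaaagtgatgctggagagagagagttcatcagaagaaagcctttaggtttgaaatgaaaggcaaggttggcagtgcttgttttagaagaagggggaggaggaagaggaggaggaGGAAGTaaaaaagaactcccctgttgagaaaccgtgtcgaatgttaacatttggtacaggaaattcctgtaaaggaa
Il1r2, a decoy that binds IL-1 without signalling, was at -1.09, -1.12, -1.49 and -0.23 in BAT and 0.22, 1.26, 1.11 and 0.73 in sWAT, a difference of -1.81 ± 0.28 (3.51-fold lower, adjusted p = 0.00267). The highest BAT replicate, number 4, and the lowest sWAT replicate, number 1, were 0.45 apart, and the paired test made no call (adjusted p = 0.0721). Il1r1, the signalling receptor of IL-1, was at -0.67, -0.34, -0.29 and -0.09 in BAT and 0.32, 0.32, 0.22 and 0.14 in sWAT (-0.60 ± 0.15, adjusted p = 0.0194). There was no overlap, but the call of Il1r1 was lost without replicate 1 (-0.47, adjusted p = 0.0612) and without replicate 2 (-0.58, adjusted p = 0.0824), as it was in the paired test (adjusted p = 0.0957). The 2 probe sets of Il1r1 gave -1.26 and 0.06, and only the first was called when tested alone. Il1rl2, the receptor of the IL-36 cytokines, differed by -0.60 ± 0.17 (adjusted p = 0.0300), a call lost without replicate 1 (-0.62), 2 (-0.47) or 3 (-0.54) and in the paired test, and its 2 probe sets gave -1.40 and 0.19. The shared accessory chain Il1rap and the X-linked Il1rapl1 and Il1rapl2, known from neurons, were not called (-0.17 to 0.34).

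Receptors of the gp130 group were lower in 3 of 4 cases (median -0.73). Il27ra, the private chain for IL-27, was at -1.39, -0.97, -0.75 and -0.93 in BAT and 1.98, 1.43, 1.02 and 1.63 in sWAT, well apart, with a difference of -2.53 ± 0.24 (5.77-fold lower, adjusted p = 3.4e-04). Il6ra, which binds IL-6, had -0.79, -0.61, -0.62 and -0.12 in BAT and 0.38, 0.23, 0.39 and 0.62 in sWAT (-0.94 ± 0.13, adjusted p = 0.00135). Its values did not overlap, yet of its 2 probe sets 1 gave -1.94 and the other 0.05. The gp130 chain itself, Il6st, was at -0.59, -0.34, -0.15 and 0.11 in BAT and 0.20, 0.42, 0.00 and 0.45 in sWAT. Here BAT replicate 4 exceeded sWAT replicate 3, and the call (-0.51 ± 0.15, adjusted p = 0.0342) was lost without replicate 1 (-0.42), 2 (-0.43) or 4 (-0.57) and in the paired test (adjusted p = 0.120). The 4 probe sets of Il6st gave -1.02, -0.92, -0.21 and 0.11, and only the first was called when tested alone. Il31ra was not called (0.29 ± 0.16).

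Among receptors of the IL-10 family 3 of 6 were lower (median -0.34). Il22ra2, a soluble protein that binds and neutralizes IL-22, was at -0.84, -1.05, -1.09 and -0.56 in BAT and 0.48, 3.50, 2.24 and 3.29 in sWAT. Replicate 1 of sWAT was far below the other 3 and still above every BAT value. The difference was -3.26 ± 0.47 (9.59-fold lower, adjusted p = 0.00186), and it was -3.91 without replicate 1. In the paired test it was not called (adjusted p = 0.0686). Il10ra, the private chain of the IL-10 receptor, had -0.67, -0.70, -0.51 and -0.17 in BAT and 0.78, 0.45, 0.34 and 0.84 in sWAT (-1.12 ± 0.14, adjusted p = 9.3e-04). These tissues did not overlap, and the shared chain Il10rb, named after its value had been seen, was also lower (-0.83 ± 0.14, adjusted p = 0.00338). Il20ra, Il20rb and Il22ra1, chains known from epithelia, were not called (0.14 to 0.28).

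The 5 IL-17 receptors were split (median 0.02). Il17ra, the chain common to the receptors of this family, was at -0.27, -0.51, -0.37 and -0.14 in BAT and 1.87, 1.69, 0.99 and 2.09 in sWAT, a difference of -1.98 ± 0.17 (3.95-fold lower, adjusted p = 2.4e-04). No value overlapped, and both probe sets were lower (-2.33 and -1.64). Il17re, the chain that binds IL-17C on epithelia, was instead at 0.34, 0.33, 0.33 and 0.51 in BAT and -0.27, -0.48, -0.34 and -0.43 in sWAT, higher in BAT by 0.76 ± 0.12 (adjusted p = 0.00272). Its BAT replicates 1 to 3 were nearly equal and replicate 4 stood above them. Its 3 probe sets gave 0.27, 0.53 and 1.47, the first not called, and without the largest, an _s_at probe set, the difference was 0.40 (adjusted p = 0.0288). Il17rb, Il17rc and Il17rd did not pass the test (-0.26 to 0.30).

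Both IL-13 receptors were lower in BAT. Il13ra1, which pairs with Il4ra, was at -1.08, -0.86, -1.0 and 0.07 in BAT and 0.30, 0.41, 0.33 and 0.16 in sWAT. The first 3 BAT replicates were near -1 and replicate 4 just below the lowest sWAT value. The difference of -1.02 ± 0.23 (adjusted p = 0.0129) did not pass without replicate 1 (-0.90, adjusted p = 0.0629) or 2 (-0.93, adjusted p = 0.0522), nor in the paired test (adjusted p = 0.117). Il13ra2, a decoy for IL-13, and Il5ra, the private chain for IL-5 on eosinophils, were named after their values had been seen. Il13ra2 differed by -0.82 ± 0.21 (adjusted p = 0.0195), a call lost without replicate 1 (-0.84), 2 (-0.75) or 3 (-0.63) and in the paired test. Both IL-13 receptors are X-linked. Il5ra differed by -0.67 ± 0.20 (adjusted p = 0.0362), a call lost without replicate 2 (-0.73), 3 (-0.43) or 4 (-0.71) and in the paired test. Il3ra and both IL-12 receptor chains, Il12rb1 (-0.40 ± 0.15) and Il12rb2 (0.33 ± 0.13), did not pass the test.

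**Figure D2:**
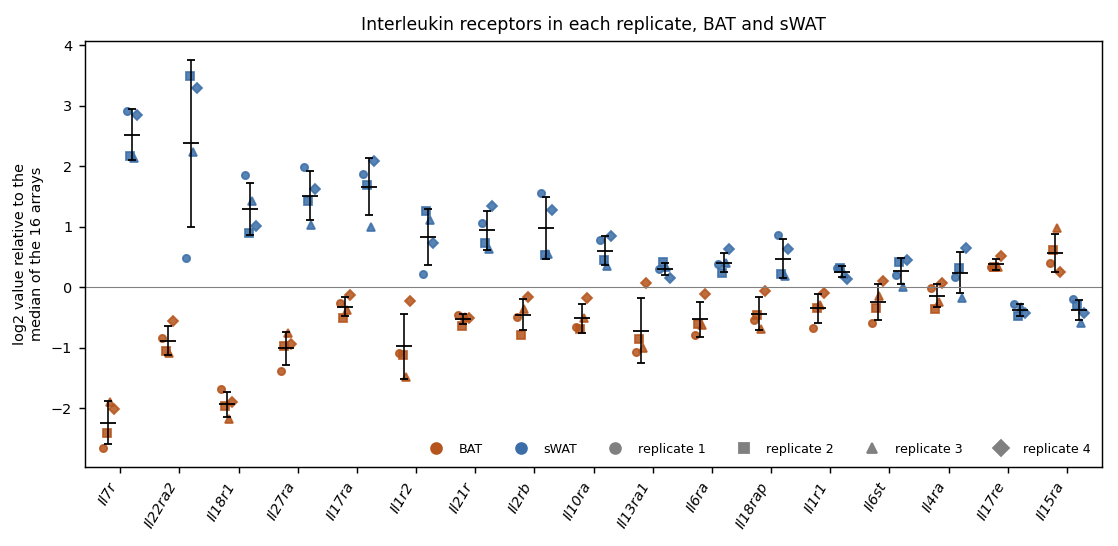
Values of 17 named receptor chains in each replicate of BAT (brown) and sWAT (blue), on the log2 scale with 0 at the array median of each probe set, with the marker shape giving the replicate and bars the mean and SD of 4 replicates. Il7r lies at -2.66 to -1.90 in BAT and 2.13 to 2.92 in sWAT, and only Il17re and Il15ra have BAT on top.

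Of the ligands, the IL-1 family held 4 that were lower in BAT and 4 that were not called. Il33, an alarmin kept in the nuclei of stromal and endothelial cells, was at -3.24, -2.56, -1.63 and -0.07 in BAT and 0.36, 0.66, 0.88 and 0.19 in sWAT. The BAT replicates spread over 3.17 log2 units, and replicate 4 was just below the lowest sWAT value. The difference was -2.40 ± 0.50 (5.28-fold lower, adjusted p = 0.00928), and without replicate 4 it was -3.11. The paired test did not call it (adjusted p = 0.120). The IL-33 receptor gene Il1rl1 was not among the members. Il18, which caspase-1 cuts into its active form, had -1.41, -1.03, -1.50 and -0.68 in BAT and 0.81, 1.37, 1.14 and 1.30 in sWAT, with no overlap and a narrower spread. It was 4.96-fold lower in BAT (-2.31 ± 0.14, adjusted p = 7.4e-05). Both sides of the IL-18 system, the ligand and its 2 chains, were thus lower in BAT.

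Il1a and Il1b, the classical pro-inflammatory IL-1 cytokines, lie side by side on chromosome 2 and were both lower. Il1b was at -0.25, -0.64, -0.65 and -0.02 in BAT and 0.23, 0.10, 0.10 and 0.78 in sWAT (-0.69 ± 0.12, adjusted p = 0.00395), where BAT replicate 4 and sWAT replicate 4 were each the highest of their tissue. Il1a had -0.22, -0.08, -0.61 and -0.49 in BAT and 0.35, 0.23, 0.48 and 0.15 in sWAT (-0.65 ± 0.15, adjusted p = 0.0147), without overlap, but was not called by the paired test (adjusted p = 0.0880). In another cluster of the same chromosome, 0 of 6 genes were called by limma (2 at an unadjusted p under 0.05), 0 by the paired test of the methods and 3 by limma without the replicate block, namely Il1f8, Il1f9, Il1f6, Il1f5, Il1f10 and Il1rn, which lie next to one another. Of these, Il1f8 (0.59 ± 0.20, adjusted p = 0.0545) and Il1f9 (0.50 ± 0.18, adjusted p = 0.0663), agonists of the IL-36 receptor, came nearest to the threshold, and their BAT values lay above all sWAT values.

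Of the 6 ligands of the common gamma chain 3 were lower. Il7, which stromal cells make and on which lymphocytes depend, was at -0.75, -0.91, -0.55 and -0.70 in BAT and 1.20, 0.72, 0.60 and 0.52 in sWAT, a difference of -1.49 ± 0.16 (2.8-fold lower, adjusted p = 6.1e-04). The highest BAT and the lowest sWAT value stood 1.07 log2 units apart, and both probe sets were lower (-2.27 and -0.71). Il21, a product of follicular helper T cells, had -0.19, -0.53, -0.76 and -0.58 in BAT and 0.73, 0.31, 0.54 and 0.29 in sWAT (-0.98 ± 0.13, adjusted p = 0.00128). Its probe sets disagreed, with -2.20 in 1 and 0.23 in the other. Il4, the signature cytokine of type 2 immunity, was at -0.01, -0.24, -0.36 and -0.15 in BAT and 0.58, 0.25, 1.22 and 0.03 in sWAT. The sWAT replicate 3 was the highest by far, and the call (-0.71 ± 0.23, adjusted p = 0.0449) was lost without replicate 1 (-0.75), 2 (-0.78) or 3 (-0.42), on the first or the second arrays alone (-0.82 and -0.60) and in the paired test (adjusted p = 0.186). Without the arrays of weak 5′ signal, 1 of them in sWAT replicate 3, the difference of Il4 was -0.57 (limma, adjusted p = 0.0236). Il15, needed by natural killer cells, was at -0.12, -0.27, 0.09 and 0.14 in BAT and 0.06, -0.23, 0.37 and -0.02 in sWAT, overlapping, with a difference of -0.08 ± 0.13 (adjusted p = 0.603). Il2 (-0.17 ± 0.13) and Il9 (0.32 ± 0.13) were not called either.

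Il16, a chemoattractant for CD4+ cells that is cut from a larger precursor, was the member whose probe sets differed most. Its mean was at -0.45, -0.85, -0.48 and -0.38 in BAT and 0.99, 0.78, 0.59 and 0.80 in sWAT (-1.33 ± 0.14, adjusted p = 4.5e-04). The tissues did not overlap. Its 4 probe sets gave -3.16, -2.41, -0.31 and 0.56, and it was the 1 member with a probe set called in each direction.

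Il20, a cytokine of the IL-10 family that acts on epithelia, was the only ligand called higher in BAT. It was at 0.27, 0.35, -0.03 and 0.14 in BAT and -0.47, -0.39, -0.29 and -0.25 in sWAT, with no overlap. The difference of 0.53 ± 0.13 (adjusted p = 0.0202) did not pass without replicate 1 (0.46, adjusted p = 0.0694) or 2 (0.46, adjusted p = 0.109), nor in the paired test (adjusted p = 0.0769). Of the same cluster on chromosome 1 neither other member was called, Il24 at 0.18 ± 0.17 and Il10 at -0.15 ± 0.12. Il10, which restrains macrophages, had -0.04, -0.26, -0.14 and 0.18 in BAT and 0.04, -0.18, -0.03 and 0.52 in sWAT, and the tissues overlapped.

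Il6, released by muscle, adipocytes and macrophages, was at -0.16, -0.40, -0.38 and 0.07 in BAT and 0.27, -0.01, 0.40 and 0.12 in sWAT. BAT replicate 4 lay among the sWAT values, and the difference of -0.42 ± 0.15 missed the threshold (adjusted p = 0.0620), which it passed without replicate 4 (-0.54, adjusted p = 0.0468). Il13, the type 2 partner of IL-4, was at 0.36, -0.01, 0.07 and 0.17 in BAT and -0.05, -0.16, -0.20 and 0.10 in sWAT, overlapping (0.23 ± 0.12, adjusted p = 0.167). Il12a and Il12b, the subunits of IL-12, were lower in BAT and were named after their values had been seen. Il12a differed by -0.64 ± 0.12 (adjusted p = 0.00560) and Il12b by -0.65 ± 0.20 (adjusted p = 0.0374), and the call of Il12b was lost without replicate 2 (-0.56) or 4 (-0.46) and in the paired test. The 2 probe sets of Il12b gave -1.26 and -0.04, and only the first was called when tested alone. The remaining ligands, including 4 of the IL-17 family, IL-3, IL-5, IL-11 and IL-34, were not called, and all 21 such ligands lay between -0.42 and 0.59.

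**Figure D3:**
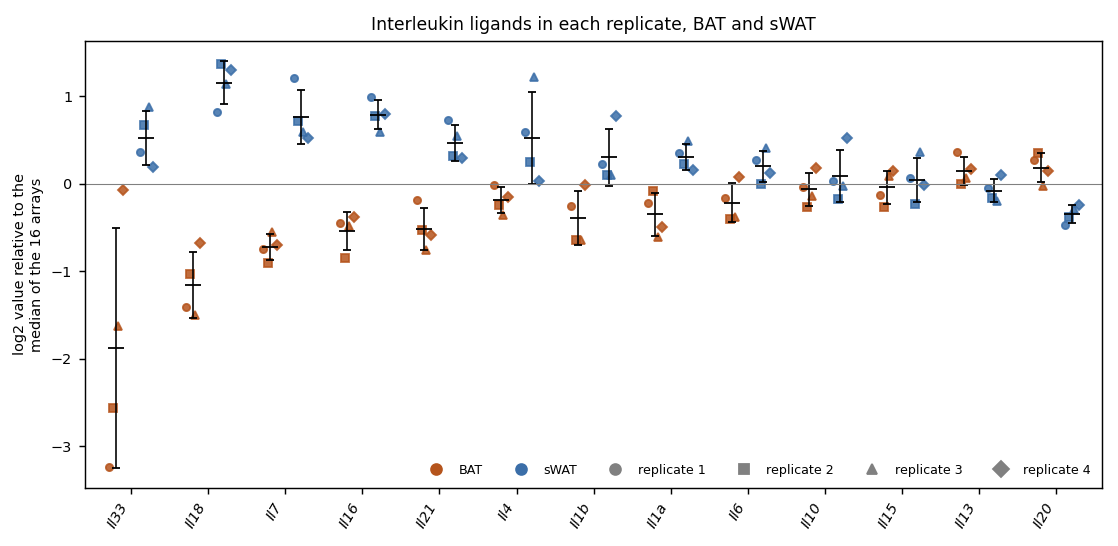
Values of 13 named ligands in each replicate of BAT (brown) and sWAT (blue), on the log2 scale with 0 at the array median of each probe set, with the marker shape giving the replicate and bars the mean and SD of 4 replicates. Il33 spreads from -3.24 to -0.07 in BAT, Il18 lies at -1.50 to -0.68 in BAT and 0.81 to 1.37 in sWAT, and Il20 alone among the called ligands has BAT on top.

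The 3 members grouped as antagonists and binding proteins were not called. The decoys Il1r2 and Il13ra2 and the soluble Il22ra2, counted above among the receptor chains, were called lower in BAT by limma. Il1rn, the natural antagonist of IL-1, was at -0.10, -0.12, -0.29 and 0.33 in BAT and 0.23, -0.16, -0.01 and 0.22 in sWAT (-0.11 ± 0.13, adjusted p = 0.504). Il18bp, which neutralizes IL-18, was at -0.29, -0.10, 0.33 and 0.07 in BAT and -0.06, -0.05, -0.22 and 0.08 in sWAT (0.07 ± 0.15, adjusted p = 0.741). In both genes the tissues overlapped. Il1f5, an antagonist in the IL-36 system, and Il1bos were not called (0.20 and 0.15). Il4i1, an enzyme that oxidizes aromatic amino acids and was first found as a gene induced by IL-4, was higher by 0.94 ± 0.16 (adjusted p = 0.00373) in its 1 single-symbol probe set and was named after its value had been seen. That call went against another probe set, annotated to both Il4i1b and Il4i1, which was at -3.54 ± 0.13 (adjusted p = 2.9e-05), so the direction of Il4i1 depends on the probe set. It is counted among the members called higher from the first of these, a call the paired test did not make.

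Probe sets of 1 member could differ. Of the 115 probe sets, 38 were lower in BAT and 8 higher when each was tested alone over all 45101 probe sets, of which 17.3% were lower and 15.1% higher. Several probe sets were present for 27 members. In 12 of these the signs differed between probe sets, in 18 some but not all probe sets passed the test, and in 4 all were lower (Il7r, Il17ra, Il18rap and Il7). The matching shares over all genes with several probe sets are not given, so these counts cannot be read as a trait of the members. The mean over probe sets lay well above the lowest probe set for Il2rb (-2.53 and -0.34), Il10ra (-2.05, -1.03 and -0.28) and Il6ra (-1.94 and 0.05). Which probe sets measure the expressed transcript was not tested.

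**Figure D4:**
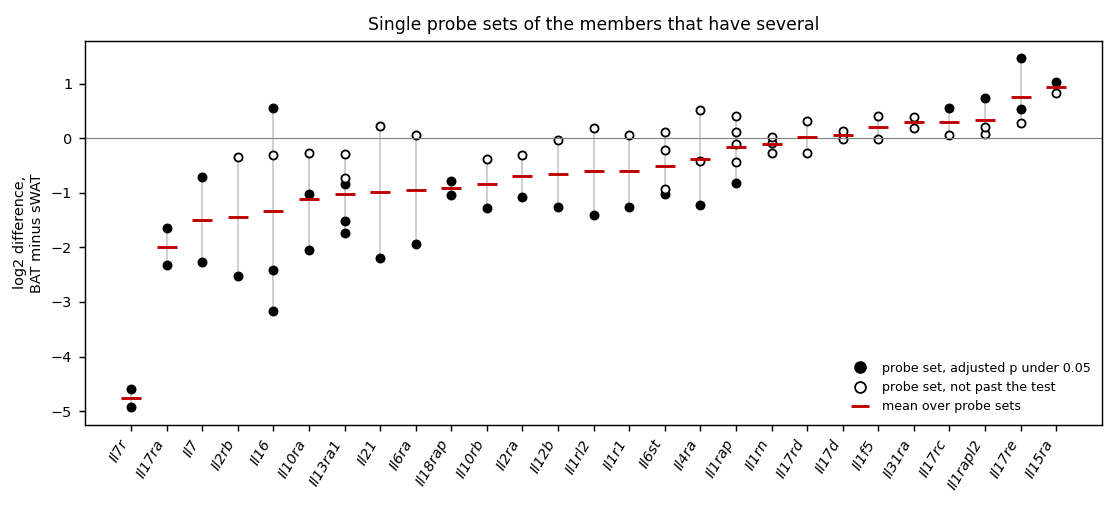
Log2 difference, BAT minus sWAT, of each probe set of the 27 members with several, in order of their mean (red bars). Filled points passed an adjusted p under 0.05 over all probe sets and open points did not; Il16 runs from -3.16 to 0.56, while the 2 probe sets of Il7r lie at -4.93 and -4.59.

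Replicate 4, the number whose sex-linked genes were alike in BAT and sWAT, was set beside the fit of the other 3. Without it 27 of the 73 members were lower and 4 higher, beside 2858 lower and 2802 higher of all 18194 genes. In replicate 4 itself 27 of the 27 members had a lower value in BAT than in sWAT and 4 of the 4 a higher one. Over all genes called in that fit the shares were 92.4% and 97.6%. The size was smaller in replicate 4 for some members. The difference within that number was -0.27 for Il33, -0.09 for Il13ra1 and -0.12 for Il13ra2, whereas it was -4.86 for Il7r, -2.91 for Il18r1 and -1.97 for Il18. Averaged over the 8 brown adipocyte genes, BAT replicate 4 stood at 1.49, below the 3.04 to 3.21 of replicates 1 to 3 of the tissue, and what part this has in the interleukin values was not tested.

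Of 32 genes in 5 lists of receptor signalling, which include the receptor Sigirr, 15 (46.9%) were lower in BAT and 1 (3.12%) higher. The shares of all genes were 17.5% and 21.0%. Of the Janus kinases 3 of 4 were lower (median -0.87), Jak1 at -1.63 ± 0.17, Jak2 at -1.28 ± 0.18 and Tyk2 at -0.47 ± 0.12, while Jak3, the partner of the common gamma chain, was at -0.12 ± 0.14 and not called. Of the STAT factors 3 of 6 were lower (median -0.37), led by Stat4, which carries the IL-12 signal, at -3.11 ± 0.18, with Stat6, the factor of IL-4 and IL-13, at -0.85 ± 0.23. Stat5a, at 0.63 ± 0.23, did not pass the test. The SOCS inhibitors, which feed back on these receptors, had 3 lower and 1 higher of 8 (median -0.02). Socs3, the inhibitor of gp130 signalling, stood at -1.92 ± 0.15 and Socs6 at 0.44 ± 0.12.

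Adaptors and other pathway genes of the other receptor families followed in part. In the list for IL-17 receptors 3 of 4 genes were lower (median -1.04), with Traf3ip2, which encodes Act1, at -1.80 ± 0.17. Nfkbiz, which is not an adaptor, was among the 3 (-1.01 ± 0.15). Of the IL-1 and Toll pathway 3 of 10 were lower (median -0.08), with the inhibitory receptor Sigirr at -1.59 ± 0.21 and Myd88 at -0.82 ± 0.22, and 7 not called. Of the 4 genes that process IL-1 and IL-18, 3 were lower (median -1.20), among them Casp1 at -1.10 ± 0.33 and Pycard at -1.29 ± 0.15, and the sensor Nlrp3 was at -0.13 ± 0.17 and not called. A list of related receptor chains and ligands without an Il symbol had 7 lower and 2 higher of 17 (median -0.20). It also held Csf1r, Csf1, Cd4 and Cxcr2, which are not of the families described above, and Csf1r (-1.18 ± 0.15) was among the 7 lower. Csf2rb2, a beta chain of the IL-3 receptor in mice, stood at -2.31 ± 0.22 and Ebi3, a subunit of IL-27, at -1.69 ± 0.17. Higher in BAT were Cntfr (1.03 ± 0.16), a receptor chain of the gp130 group, and Ctf1 (1.73 ± 0.12), a gp130 cytokine.

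Markers of lymphocytes were lower in BAT as well. All 12 T cell genes measured were lower in BAT, with a list mean of -1.40 to -0.72 in BAT and 1.38 to 2.25 in sWAT, led by Cd28 at -4.63 ± 0.26. All 9 B cell genes were lower (-2.25 to -1.75 in BAT and 1.91 to 2.60 in sWAT), and so were all 4 genes of regulatory T cells and 4 of 6 genes of natural killer and innate lymphoid cells (-0.91 to -0.39 and 0.26 to 0.90). All 5 genes of lymph nodes (stroma and high endothelial venules) were lower, with a list mean of -1.73 to -1.40 in BAT and 1.28 to 2.02 in sWAT. The study's top sWAT genes include Ms4a1 and Pou2af1 of the B cell list and Glycam1 of the lymph node list, so their direction was known beforehand. Over the receptor chains the mean was -0.39 to -0.20 in BAT and 0.38 to 0.48 in sWAT, and over the ligands it was -0.24 to 0.01 and 0.04 to 0.17.

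Myeloid and stromal genes were less uniform. Of 9 macrophage genes 5 were lower and Cd163 was higher (2.11 ± 0.42), with a list mean of -1.06 to 0.26 in BAT and 0.01 to 0.55 in sWAT. Of the dendritic cell genes 4 of 5 were lower, and of the mast cell genes 1 of 6 was higher and 0 lower. The neutrophil list, with 2 of 7 lower, was high in sWAT replicates 3 and 4 (1.40 and 2.95). Fibroblast genes were lower in 5 of 7 cases, but their mean was 0.66 in BAT replicate 4 against -1.51 to -0.87 in the other BAT replicates, and the macrophage and mast cell list means (0.26 and 0.72) were highest of BAT there too. Among 6 epithelial genes, 3 were higher in BAT (Krt5, Krt14 and Krt15) and 1, Epcam, was lower (-1.12 ± 0.17). Of the 73 members, 28 (38.4%) had their highest BAT value in replicate 4, as had 28.9% of all genes, and 16 of the 29 members that were lower did so. The share among all genes called lower in BAT is not given, so the 16 of 29 has no like comparison. Since the values are centred, no marker can be said to be at 0. The part of these cell types in the interleukin values was not tested.

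**Figure D5:**
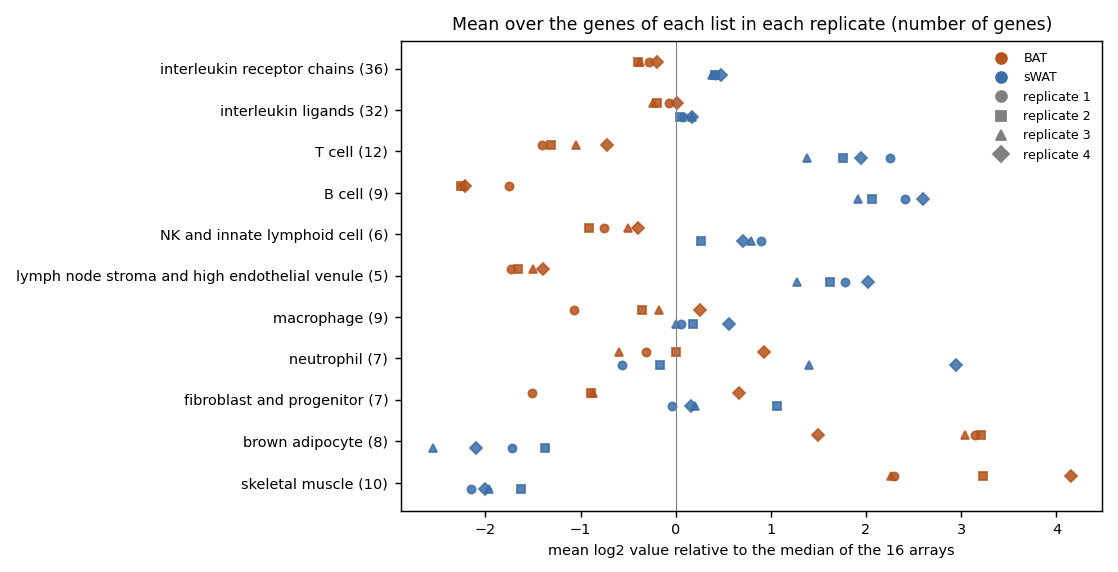
Mean over the genes of each list in each replicate of BAT (brown) and sWAT (blue), on the log2 scale with 0 at the array median of each probe set, with the number of genes in parentheses. Receptor chains, T cell, B cell and lymph node genes have all BAT replicates on the left, while brown adipocyte and muscle genes have them on the right; fibroblast genes in BAT replicate 4 reach 0.66.

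Short motifs were looked for in the 250 bases before the start, which RefSeq gave for 57 of the 73 members. The starts are those listed with the sequences, and in 23 members a window reached into the annotated gene, as for Il7r and Il15ra, where only the bases outside the gene are printed above. The 4 motifs, chosen after the values had been seen and read on both strands, were TTCNNNGAA of STAT factors, TGTGGT of RUNX factors, GGAAGT of ETS factors and AGGTCA of nuclear receptors, and the first and the third can overlap. GGAAGT or its complement was found in 9 of the 22 members that were lower in BAT (40.9%), as in the windows of Il2ra and Il18rap printed above, in 6 of the 31 that were not called (19.4%), and in 22.2% of all 27025 genes with such a window. TTCNNNGAA occurred in 3 of the 22 (13.6%), 5 of the 31 (16.1%) and 8.13% of all genes. TGTGGT had shares of 18.2%, 19.4% and 15.9% in the same order, and AGGTCA 9.09%, 16.1% and 15.8%. A match says only that the letters are there, and none of these shares was tested.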

How the data were processed

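The authors made biotin-labelled aRNA from total RNA, hybridized it to Affymetrix mouse genome arrays and summarized the signals by RMA (named in the submitters' processing notes) with quantile normalization in GeneSpring GX. They then centred every probe set on its median, and the deposited log2 values of all 45101 probe sets had a median of 0 over the 16 arrays. No filter on low values could therefore be set, and precision is limited by the 4 replicates per tissue. The platform annotation gave 1 symbol for 34958 probe sets, several for 932 and none for 9211.

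Both arrays of a replicate were averaged, and a gene was the mean of its single-symbol probe sets. The fit was made in R 4.3.3 with limma 3.58.1 (lmFit, eBayes) for BAT minus sWAT, replicate number entered as a block, and the p-values of 18194 genes were adjusted together (Benjamini-Hochberg). Errors are the moderated standard errors of that fit, with 4 replicates per tissue. Per the methods both tissues were dissected from 4 animals, while the labels tie no BAT replicate to an sWAT replicate. The sex-linked genes of BAT replicates 1 to 3 were unlike those of every sWAT replicate, so for these numbers the block does not stand for a shared animal. The limma p-values rest on the spread of the BAT minus sWAT differences between the 4 replicate numbers, moderated over all genes. Tissue is largely confounded with sex and animal.

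The fit was tested on simulated data of independent noise with added shifts. These held no sex, animal or array effects, so the simulation cannot bear on those. Members and lists were chosen with earlier results of these data known. Values per replicate are given for the 12 receptors and 8 ligands called with the largest difference towards sWAT, up to 6 of each towards BAT, and members known from adipose tissue. The alternatives tried were first arrays only, second arrays only, a fit that drops the block, the paired test of the methods, arrays centred or quantile normalized again, the median over probe sets, plain _at probe sets, single probe sets, a fold limit of 2, no arrays of weak 5′ signal, and each replicate left out. Probe sets with several symbols were kept out of the members.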

Additional observations from a re-analysis of the deposited data

Results flagged for a closer look

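Il17re in BAT replicate 4 stood at 0.51, apart from 0.34, 0.33 and 0.33 in BAT replicates 1 to 3, with a gap of 0.926 of the range of BAT. It was the 1 value set apart among 64 groups of 4 replicates (32 named members in both tissues), where chance sets apart about 1 in 20. Outside the members, a probe set that carries the symbols Il4i1b and Il4i1 had a log2 difference of -3.54 ± 0.13 (limma, adjusted p = 2.9e-05), with -1.39, -1.35, -1.46 and -1.46 in BAT against 2.22, 2.08, 2.03 and 2.17 in sWAT, whereas the single-symbol probe set of Il4i1 was at 0.94. Which of these reads the Il4i1 transcript was not tested. Another probe set, which carries Ntan1 and Il2, was at 0.76 ± 0.19 (adjusted p = 0.0196), and the single-symbol probe set of Il2 was not called at -0.17.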

How the results depend on the processing

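The paired test of the methods called 11 receptor chains, 6 ligands, 18 members in all and 15 genes of the signalling lists, against 21, 11, 33 and 28 with limma, and it ended the calls of 11 named members (Il22ra2, Il1r2, Il13ra1, Il18rap, Il6st, Il1r1, Il15ra, Il33, Il4, Il1a and Il20). A fold of at least 2 left 10 receptor chains, 4 ligands, 14 members and 18 signalling genes. Without the replicate block the ligands called were 17 (11 lower and 6 higher in BAT), and without the arrays of weak 5′ signal also 17. The block rests on the pairing by number, for which the data gave no sign: the deviations of equal numbers in BAT and sWAT correlated across genes at -0.15, 0.08, -0.34 and 0.26, and the highest of all, 0.52, joined BAT replicate 1 to sWAT replicate 3, which hold the 2 arrays of weak 5′ signal. The fit without the replicate block called 23 receptor chains and 41 members, and of the named members it changed only the call of Il6 (adjusted p = 0.0345). Leaving out each replicate gave 15 to 20 receptor chains, 8 to 11 ligands, 24 to 32 members and 22 to 29 signalling genes, and 24 of the 33 called members passed in each of these 4 fits. Outside the main fit, the fold limit and the fit without replicate 4, no share of all genes is given for these counts. Of the named members, Il15 turned to 0.0653 on the second arrays alone, and Il18bp turned to -0.0733 there and ranged from -0.0941 (without replicate 3) to 0.165 with 1 replicate left out, none of them called. Over the 32 named members and the 13 alternatives with a value per gene (413 values, since 3 members had no plain _at probe set), 374 kept direction and side of the threshold, 8 passed it newly (all of Il6 or Il4ra), 28 missed it and 3 changed sign. Il20 and Il6st were not called on the first arrays alone, nor Il1r1 on the second. For the values above the cause was not tested. A filter on low values could not be run, since the values are centred, and faint probe sets cannot be told from bright ones.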
